A study of Mus musculus with 4 samples.

Results

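Transcripts of the chemokine genes Cxcl9 and Cxcl10 and of their shared receptor gene Cxcr3 were followed through single-cell RNA-seq (scRNA-seq) libraries of bone marrow and spleen from leukemic mice. These are 3 of the 32285 genes in the count tables. They were chosen by the difference in Cxcl10 UMIs between shPrmt9 and Ctrl T cells, where Cxcl10 had the largest increase in an earlier reading of the same libraries, so the levels of Cxcl10 in T cells below are a description of the reason for that choice and carry no test. There were 4 libraries, 1 per group, with marrow from a Ctrl animal (BM-Ctrl) and an shPrmt9 animal (BM-shPrmt9) and spleen from the same kinds of animal (Spleen-Ctrl and Spleen-shPrmt9). All came from C57BL/6J mice aged 6 to 8 weeks that carried MA9 cells, mouse blood progenitors made leukemic by the MLL-AF9 fusion gene, and that drank doxycycline for 7 days. In the shPrmt9 groups the doxycycline-inducible hairpin against Prmt9, an arginine methyltransferase gene, was carried by the transplanted MA9 cells, and the Ctrl groups carried a control. T cells, B cells and the other normal blood cells of wild-type recipients were therefore not targeted by the hairpin. The study describes 1 mouse per group as the source, so a difference between libraries cannot be told apart from a difference between animals, and no p-value is given.

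CXCL9 and CXCL10 are small secreted proteins that are induced by interferons. CXCL9 depends mainly on interferon gamma, whereas CXCL10 answers to type I interferon, interferon gamma and NF-kB signals and is made by many cell types, with monocytes, macrophages and stromal cells as well-known sources. Both bind CXCR3, a G-protein-coupled receptor of activated T cells, natural killer (NK) cells and plasmacytoid dendritic cells, which is switched on by the transcription factor T-bet and guides these cells to inflamed tissue and tumors.

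On the mouse build GRCm38, both ligand genes lay on the minus strand of chromosome 5, Cxcl9 (ENSMUSG00000029417) at chr5:92321347-92328079 and Cxcl10 (ENSMUSG00000034855) at chr5:92346638-92348889. Cxcr3 (ENSMUSG00000050232) lay on the minus strand at chrX:101731535-101734269. The gene of the third ligand, Cxcl11, was not analysed here. Art3 (chr5:92331827-92414628, plus strand) spans Cxcl10, and had 0 UMIs in BM-Ctrl T cells, 3 in BM-shPrmt9, 6 in Spleen-Ctrl and 41 in Spleen-shPrmt9. The 250 bases before the RefSeq start of the ligand genes are shown as a description of sequence. Whether the sequence bears on the levels of the ligands was not tested. Capitals mark matches to an interferon-stimulated response element (ISRE) core or to the NF-kB consensus, and the sequences run 5′ to 3′ on the minus strand, at chr5:92348890-92349139 for Cxcl10 and chr5:92328080-92328329 for Cxcl9.
Cxcl10: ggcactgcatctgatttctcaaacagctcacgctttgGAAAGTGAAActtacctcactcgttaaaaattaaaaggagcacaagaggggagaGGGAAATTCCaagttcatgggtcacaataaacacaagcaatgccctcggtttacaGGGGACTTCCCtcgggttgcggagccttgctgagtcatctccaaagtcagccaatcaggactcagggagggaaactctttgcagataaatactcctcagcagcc
Cxcl9: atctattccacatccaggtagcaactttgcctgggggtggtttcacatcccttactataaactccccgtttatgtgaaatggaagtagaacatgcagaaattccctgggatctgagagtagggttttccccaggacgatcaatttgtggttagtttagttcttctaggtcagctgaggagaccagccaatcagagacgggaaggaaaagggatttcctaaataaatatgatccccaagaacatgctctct
The Cxcl10 sequence held 1 match to the ISRE core, GAAA followed after any 2 bases by GAAA, at 213 to 204 bases before the start, which 2.98% of 32851 promoter windows of the same length hold on either strand. It also held a match to the NF-kB consensus at 159 to 150 bases and 2 overlapping matches at 104 to 95 and 103 to 94 bases before the start, and 7.25% of windows hold at least 1. A gamma-activated site of the form TTCNNNGAA, held by 7.02% of windows, was in neither sequence, and the Cxcl9 window held no match to any of these motifs. The Cxcr3 window also held none. Only exact matches to these patterns were counted, so the absence of a match does not show that a window lacks a response element.

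The kept cells numbered 9645 in BM-Ctrl, 11174 in BM-shPrmt9, 8946 in Spleen-Ctrl and 8065 in Spleen-shPrmt9, with median depths from 6668 to 10548 UMIs per cell. Between 13 and 35 cell barcodes were shared by any pair of libraries, at most 0.384% of a library. The targeted gene, Prmt9, was at 10.5, 6.89, 13.3 and 7.12 counts per 1000000 UMIs (CPM) over all cells in that order. Genes of the Y chromosome, 4 in all, had 0 UMIs and 1 UMI in the cells other than MA9 of the marrow libraries, against 215 and 157 CPM in the spleen libraries. This goes against a single mouse as the source of both tissues of a group, and the tissues are given side by side without a direct comparison. Cells were assigned to 14 classes from marker genes that exclude the 3 genes, and in 32 of the 36 class sums with at least 20 cells every marker was higher than in the other cells. The exceptions were conventional dendritic cells of BM-Ctrl (Xcr1), monocytes of Spleen-shPrmt9 (Fn1 and Cx3cr1) and macrophages of both marrow libraries (Vcam1 and Slc40a1).

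Cxcl10 was the abundant ligand, with 4148 UMIs in BM-Ctrl, 12031 in BM-shPrmt9, 4538 in Spleen-Ctrl and 105374 in Spleen-shPrmt9. Cxcl9 had 10, 161, 82 and 251 UMIs in the same libraries, and Cxcr3 had 279, 179, 1100 and 1510. The share of cells with a Cxcl10 UMI was 5.62%, 13.8%, 10.3% and 66.2%. Cxcl10 was thus seen in most cells of Spleen-shPrmt9 and in a minority elsewhere, whereas Cxcl9 was seen in 9, 52, 17 and 57 cells in all. These shares are not thinned, and free RNA was not subtracted from them, so a cell with a UMI need not express the gene.

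In T cells, Cxcl10 was low in BM-Ctrl, near the upper bound set for free RNA, and high in both shPrmt9 libraries. The 311 T cells of BM-Ctrl held 16 UMIs, or 7.00 CPM (exact 95% Poisson interval 4.0 to 11.4), and 9 of the 16 were in 1 cell. The 196 T cells of BM-shPrmt9 held 2717 UMIs, or 1613 CPM (1553 to 1675). In the spleen, 1988 T cells of the Ctrl library held 2010 UMIs, or 117 CPM (112 to 122), and 2899 T cells of the shPrmt9 library held 71750 UMIs, or 2489 CPM (2471 to 2507). The ratio of shPrmt9 to Ctrl was 231 in the marrow (exact conditional binomial interval 142 to 404) and 21.3 in the spleen (20.3 to 22.2). All these intervals cover counting error only and say nothing of the spread between animals. Among genes with at least 10 UMIs over both libraries, 5.14% of 10121 were at least 2-fold higher in the marrow T cells of shPrmt9 and 6.43% of 13669 in those of the spleen. Among those with a Ctrl UMI, Cxcl10 ranked first of 10111 genes in the marrow and the 22nd of 13614 in the spleen, as its choice requires. Another 10 genes in the marrow and 55 in the spleen had no Ctrl UMI and were not ranked.

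In the spleen the increase was shared by most T cells, whereas 17 of the 196 T cells of BM-shPrmt9 held at least 50% of its UMIs. The median T cell had 0 Cxcl10 UMIs in BM-Ctrl, 3.5 in BM-shPrmt9, 0 in Spleen-Ctrl and 16 in Spleen-shPrmt9. Cells with at least 5 UMIs numbered 1, 91, 153 and 2219, or 0.322%, 46.4%, 7.70% and 76.5% of the T cells. The highest single cell held 9, 376, 63 and 235 UMIs, and the smallest number of T cells that together held at least 50% of the UMIs was 1, 17, 76 and 497. A single cell thus weighed on the Ctrl value of the marrow, and with that cell and the highest cell of BM-shPrmt9 left out the ratio was 457 (222 to 1139).

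**Figure D1:**
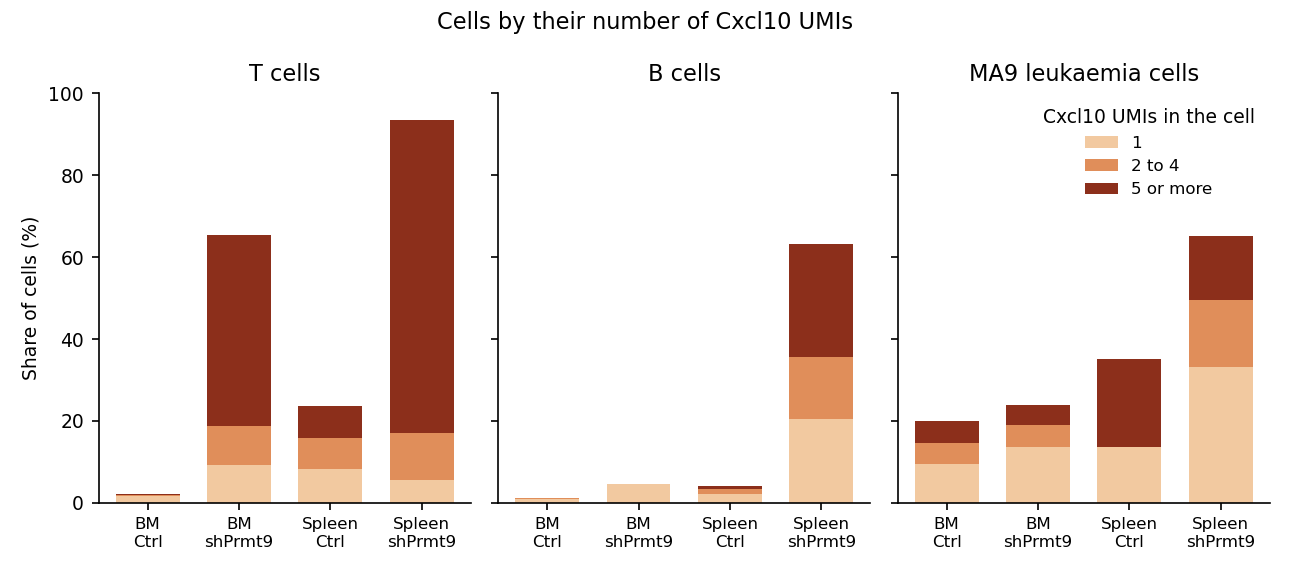
Share of cells (%) with 1, 2 to 4, and 5 or more Cxcl10 UMIs, as stacked bars from 0, for T cells, B cells and MA9 cells of the 4 libraries, without thinning. Cells with at least 5 UMIs make up 46.4% of the T cells of BM-shPrmt9 and 76.5% of those of Spleen-shPrmt9, against 0.322% and 7.70% in the Ctrl libraries.

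The difference in the share of positive cells remained after every cell was thinned to 2000 UMIs. Unthinned, 2.25% of T cells had a Cxcl10 UMI in BM-Ctrl, 65.3% in BM-shPrmt9, 23.6% in Spleen-Ctrl and 93.6% in Spleen-shPrmt9. Thinned, the shares were 0.329% (exact Clopper-Pearson interval 0.00833% to 1.82%), 54.1% (46.8% to 61.3%), 13.1% (11.6% to 14.7%) and 81.7%, and thinning left out 7, 2, 3 and 82 shallower T cells. The median depth of the T cells was 6739, 7509, 7159 and 8749 UMIs.

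Free RNA in the droplets could give only a small part of the T cell counts in 3 libraries. For each class, transcripts that the class should lack, such as Ighm, Hba-a1 and Camp in T cells, gave an upper bound on the level that free RNA and residual other cells can add. The highest of these transcripts set the bound. It was set for summed counts, and the part of free RNA in the shares of positive cells was not tested. For Cxcl10 in T cells this bound was 7.44 CPM in BM-Ctrl, above the 7.00 CPM counted there. At this bound no expression could be told from background in that class. It rested on Ighm, at 30.7% of its library-wide level in these T cells, while the other such transcripts were at 2.10% (Ltf) to 4.07% (Igkc). In BM-shPrmt9 the bound was 52.3 CPM, and in the spleen it was 3.18 CPM for Ctrl and 75.8 CPM for shPrmt9, or 3.24%, 2.71% and 3.04% of the counted level. Over the 36 class sums, Cxcl10 was above its bound in 24, Cxcr3 in 14 and Cxcl9 in 13.

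**Figure D2:**
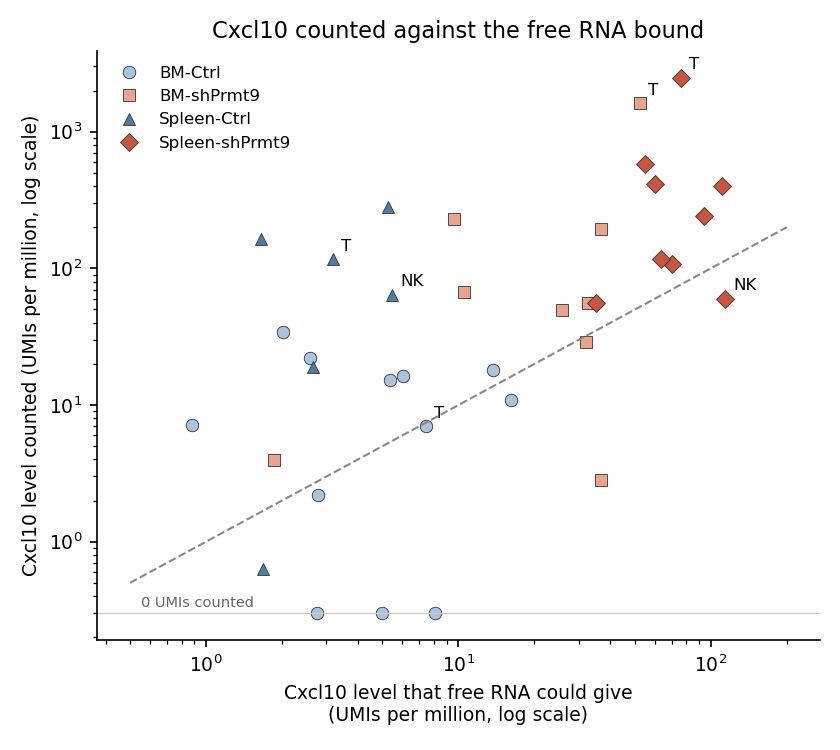
Counted Cxcl10 level of each class and library with at least 20 cells (CPM) against the level that free RNA could give at most (CPM), both on log axes, with a dashed line of equality and classes with 0 UMIs drawn on the grey line. T cells of BM-shPrmt9, Spleen-Ctrl and Spleen-shPrmt9 lie far above the line of equality, whereas T cells of BM-Ctrl (7.00 counted, 7.44 at most from free RNA) lie just below it.

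Monocyte markers were lower in the T cells with most Cxcl10 than in those with none in both shPrmt9 libraries, whereas macrophage, erythroid and B cell markers were higher in the marrow. In Spleen-shPrmt9, monocyte markers were at 0.587 per 10000 UMIs in T cells with at least 5 Cxcl10 UMIs and at 1.21 in T cells with none, and macrophage markers were at 0.0270 and 0.0289. In BM-shPrmt9, monocyte markers were at 0.628 and 1.68 and neutrophil markers at 46.9 and 54.7, while macrophage markers were at 0.0779 and 0.0149, erythroid markers at 0.462 and 0.126 and B cell markers at 0.778 and 0.652. Neutrophil markers were higher in the T cells without Cxcl10 of BM-shPrmt9 (54.7) than in those of BM-Ctrl (15.0), and the part of these other markers in the Cxcl10 difference was not tested. When the T cells with any UMI of a monocyte or macrophage marker were left out, Cxcl10 was at 9.87 CPM in 186 cells of BM-Ctrl, 1661 CPM in 120 of BM-shPrmt9, 123 CPM in 1367 of Spleen-Ctrl and 2533 CPM in 1854 of Spleen-shPrmt9.

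Both main T cell lineages carried the higher level. CD8 T cells, the cytotoxic lineage, were at 4.74 CPM of Cxcl10 in BM-Ctrl (177 cells), 1330 in BM-shPrmt9 (112 cells), 127 in Spleen-Ctrl (989 cells) and 2146 in Spleen-shPrmt9 (1185 cells). CD4 T cells, the helper lineage, had 0 UMIs in 25 cells of BM-Ctrl, and were at 2930 CPM in 19 cells of BM-shPrmt9, 107 in 437 cells of Spleen-Ctrl and 2707 in 759 cells of Spleen-shPrmt9. The ratio in the spleen was 25.3 (22.6 to 28.4) in CD4 cells and 16.9 (16 to 17.9) in CD8 cells. It was 31.9 (28.6 to 35.7) in T cells in which neither a Cd4 nor a Cd8 transcript was seen. In the marrow the CD8 ratio was 281 (136 to 699), and 42.3% of the CD4 UMIs of BM-shPrmt9 were in 1 cell.

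Within Spleen-shPrmt9, CD4 cells had 1.26 times the Cxcl10 level of CD8 cells (1.24 to 1.29). The shares of cells with a UMI after thinning were close, 84.3% (81.5% to 86.9%) in CD4 cells and 82.1% (79.8% to 84.2%) in CD8 cells, and their intervals overlap. In Spleen-Ctrl the order was the other way round, at 0.844 times the CD8 level (0.744 to 0.955). Cells with a transcript of Foxp3, the regulatory T cell factor, went from 62.3 CPM in 23 cells to 2682 CPM in 31 cells of the spleen.

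**Figure D3:**
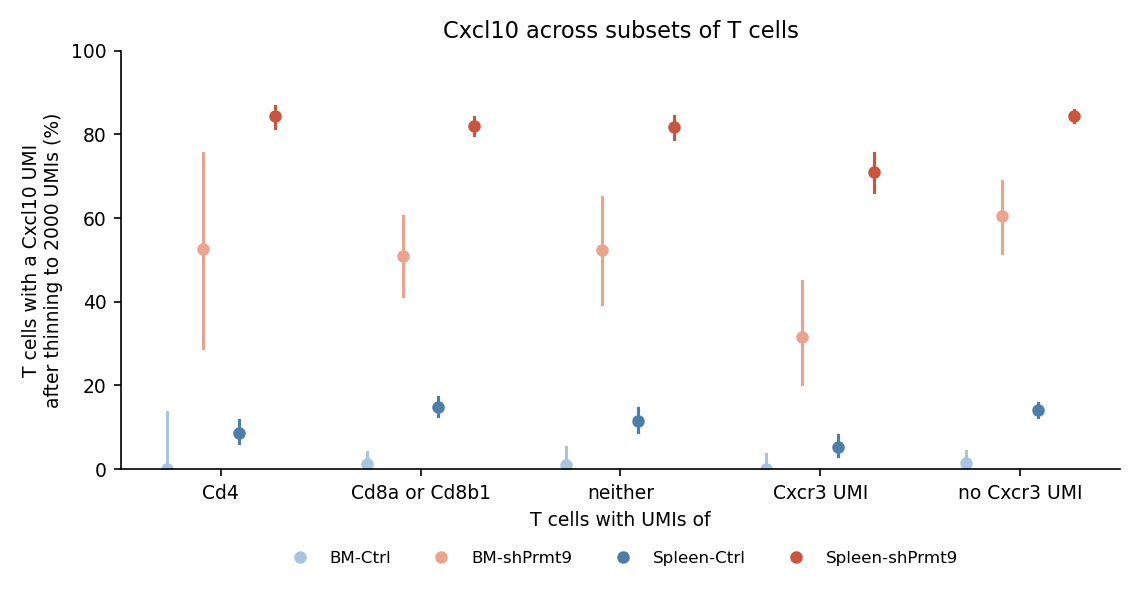
Share of T cells with a Cxcl10 UMI after thinning to 2000 UMIs (%), by the transcripts the cells carry (Cd4, Cd8a or Cd8b1, neither, with and without a Cxcr3 UMI), with exact Clopper-Pearson intervals that cover counting error only. In Spleen-shPrmt9 the share is 84.3% in CD4 and 82.1% in CD8 cells, and cells with a Cxcr3 UMI are below cells without in both shPrmt9 libraries.

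T cells with a receptor transcript carried less of the ligand transcript. In BM-shPrmt9, Cxcl10 was at 680 CPM in the 61 T cells with a Cxcr3 UMI and at 2070 CPM in the 135 without, 3.05 times as much (2.73 to 3.41). In Spleen-Ctrl the levels were 30.6 CPM in 324 cells and 146 CPM in 1664 cells, a ratio of 4.78 (4.01 to 5.74). In Spleen-shPrmt9 they were 1448 CPM in 389 cells and 2751 CPM in 2510 cells, a ratio of 1.90 (1.86 to 1.94). The direction was the same in these 3 libraries, and BM-Ctrl had only 16 UMIs to divide. The order also held among CD8 T cells, with 526 against 1695 CPM, 23.9 against 179 CPM and 1303 against 2514 CPM in these libraries.

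Cells with a Cxcr3 UMI were deeper, with a median of 10812 against 6878 UMIs in Spleen-Ctrl and 12780 against 8439 in Spleen-shPrmt9. After thinning to 2000 UMIs, the share with a Cxcl10 UMI was still lower among cells in which Cxcr3 had been seen, at 31.7% against 60.4% in BM-shPrmt9, 5.25% against 14.0% in Spleen-Ctrl and 71.1% against 84.5% in Spleen-shPrmt9. Both kinds of cell were higher in shPrmt9 than in Ctrl. The spleen ratio was 47.3 (39.8 to 56.5) in cells with a Cxcr3 UMI and 18.8 (18.0 to 19.7) in cells without, so the gap between them was narrower in Spleen-shPrmt9.

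Among the other classes of the marrow, monocytes, macrophages, neutrophils and erythroid cells were higher for Cxcl10 in shPrmt9, and MA9 cells were not. Monocytes held 192 UMIs in 621 cells of BM-Ctrl and 1113 UMIs in 272 cells of BM-shPrmt9, or 16.2 and 193 CPM, a ratio of 11.9 (10.2 to 13.9). Against this, 8.12% of all genes measured in marrow monocytes were at least 2-fold higher. The share of monocytes with a Cxcl10 UMI was 9.82% and 46.0%, and 2.28% and 16.9% after thinning. Macrophages, with 23 and 59 cells, held 6 and 249 UMIs, or 15.4 and 229 CPM, and 83 of the 249 were in 1 cell. In BM-shPrmt9 the intervals of monocytes (182 to 205 CPM) and macrophages (201 to 259 CPM) overlap, and both were far below T cells.

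Neutrophils of the marrow went from 10.8 to 55.9 CPM, a ratio of 5.17 (4.54 to 5.90), with 5.33% of genes at least 2-fold higher in that class. The 10.8 CPM of BM-Ctrl was below its free RNA bound of 16.1 CPM, and 500 of 6504 neutrophils of BM-shPrmt9 had a UMI. The bound of BM-shPrmt9 neutrophils was 32.6 CPM, or 58.3% of the counted level, with Cd3d at 50.8% and Ighm at 44.3%. The other such transcripts were at 2.25% (Cd3e) to 7.20% (Hbb-bs) there. Erythroid cells went from 7.18 to 67.0 CPM, a ratio of 9.34 (6.33 to 14.3). In that class 28.3% of genes were at least 2-fold higher and the median gene was 0.54 higher on the log2 scale, so a shift of many genes accompanied this value. The corresponding median over all genes was −0.29 in marrow neutrophils and −0.20 in splenic B cells, and lay within 0.1 of 0 in T cells of both tissues and in marrow monocytes. Myeloid progenitors went from 22.2 to 49.2 CPM, with 70 of the 75 Ctrl UMIs in 1 cell. With the top cell of both libraries left out the ratio moved from 2.22 to 22.4 (8.83 to 72.6), on 5 Ctrl UMIs. Their median depth was 31971 UMIs in BM-Ctrl and 2965.5 in BM-shPrmt9, so the gate may hold unlike cells in the libraries. The free RNA bound in BM-shPrmt9 was 25.7 CPM, or 52.3% of the counted level. B cells of the marrow held 14 UMIs in 1130 cells and 5 in 109 cells, or 2.21 and 3.94 CPM, with neither interval wholly above the free RNA bound.

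MA9 cells, the cells that carry the hairpin, held most of the Cxcl10 of BM-Ctrl and were not higher in BM-shPrmt9. These MA9 cells contributed 3237 UMIs in 1598 cells of BM-Ctrl and 2734 in 1825 cells of BM-shPrmt9, or 34.3 and 28.9 CPM, a ratio of 0.844 (0.801 to 0.888). The share of MA9 cells with a UMI was 19.96% and 23.9%, and 3.63% and 3.95% after thinning, with overlapping intervals. Few cells carried these totals, since 11 and 24 MA9 cells held at least 50% of the UMIs. The 28.9 CPM of BM-shPrmt9 was below its free RNA bound of 31.9 CPM, which rested on Ighm at 49.8% of its library-wide level. Cd3d came next at 20.8%, and the lowest such transcript, Igkc, was at 2.79%. In that library 90 MA9 cells held at least 5 Cxcl10 UMIs, and the highest held 159. As a share of the library total, MA9 cells held 78.0% of the Cxcl10 UMIs in BM-Ctrl and 22.7% in BM-shPrmt9, whereas T cells held 0.386% and 22.6% while making up 3.22% and 1.75% of the cells. Neutrophils held 25.2% of the BM-shPrmt9 total and made up 58.2% of its cells.

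In the spleen, B cells had a ratio close to that of T cells at a lower level. The 5939 B cells of Spleen-Ctrl held 958 UMIs, or 18.9 CPM, and the 1436 of Spleen-shPrmt9 held 12377, or 414 CPM, a ratio of 21.9 (20.5 to 23.4), where 5.69% of genes were at least 2-fold higher. Their median depth was 6441 and 16311 UMIs, so the share of B cells with a UMI, 4.11% and 63.3%, is better read after thinning, at 1.70% and 28.0%. The UMIs of B cells were held by few cells in Spleen-Ctrl, where 17 cells had at least 50% of them, and by 70 cells in Spleen-shPrmt9. B cells with at least 5 Cxcl10 UMIs had neutrophil markers at 6.73 per 10000 UMIs in Spleen-Ctrl against 0.936 in B cells with none. In Spleen-shPrmt9 these were at 4.23 against 5.06. T cell markers were higher in both libraries, at 0.679 against 0.431 (Ctrl) and 0.635 against 0.537 (shPrmt9). Monocyte and macrophage markers were lower in both. The free RNA bound of B cells was 2.66 CPM in Ctrl and 60.1 CPM in shPrmt9, or 14.1% and 14.5% of the counted level. The part of RNA from other cells in these B cell levels was not tested.

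Other classes of the spleen were small in Spleen-Ctrl. Its 17 monocytes held 161 UMIs, 153 of them in 1 cell, which put Spleen-Ctrl at 1157 CPM against 575 CPM in 40 monocytes of Spleen-shPrmt9, a ratio of 0.497 (0.408 to 0.608). With the top cell of both libraries left out the ratio turned to 6.86 (3.41 to 16.1), so its direction rests on that cell. The 41 neutrophils of Spleen-Ctrl were at 280.1 CPM and the 247 of Spleen-shPrmt9 at 117 CPM, a ratio of 0.417 (0.333 to 0.527), and 0.573 without the highest cells. MA9 cells went from 165 CPM in 37 cells, with 107 of 249 UMIs in 1 cell, to 242 CPM in 184 cells, a ratio of 1.46 (1.28 to 1.69). NK cells had 48 UMIs in Spleen-Ctrl, 46 of them in 1 of 51 cells, and 76 in 129 cells of Spleen-shPrmt9, where the 59.8 CPM was below the free RNA bound of 114 CPM. Erythroid cells held 1 UMI in 144 cells of Spleen-Ctrl and 896 in 1352 cells of Spleen-shPrmt9, where 55.5 CPM was above the bound of 35.1 CPM. The 43 macrophages of Spleen-shPrmt9 were at 399 CPM, and Spleen-Ctrl had only 4 of them.

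**Figure D4:**
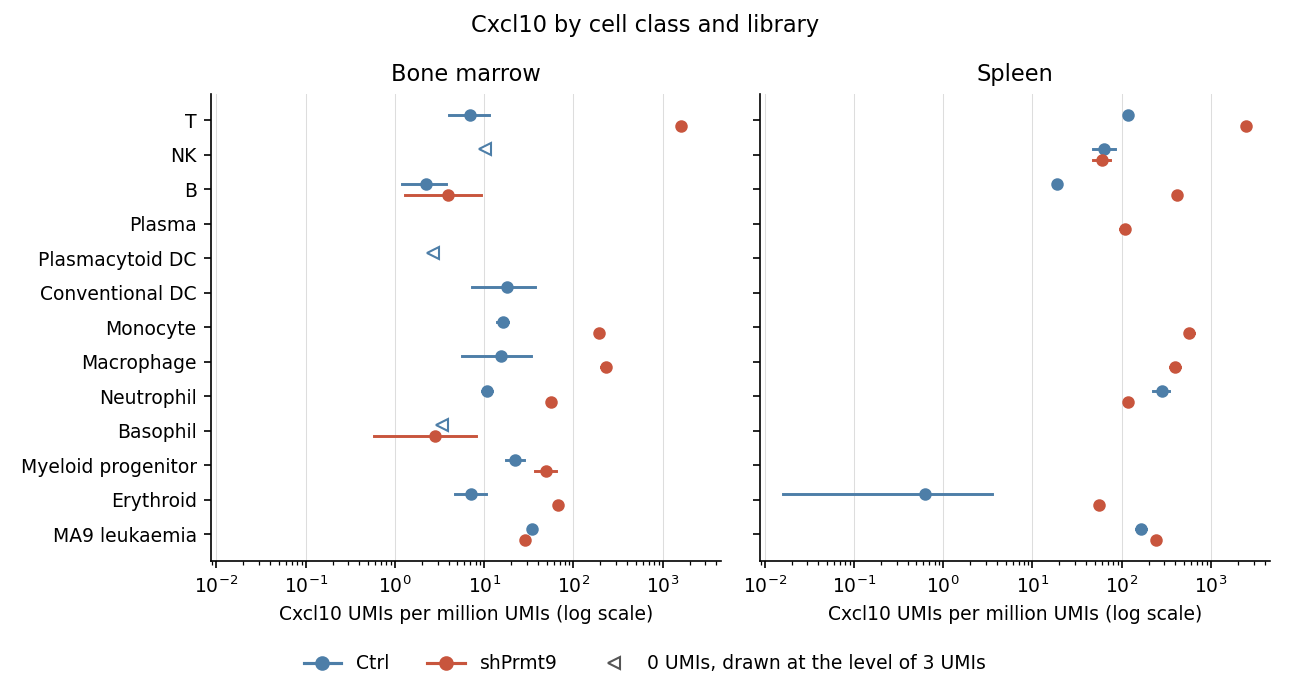
Cxcl10 level (CPM, log axis) by cell class in the 4 libraries, for classes with at least 20 cells, with exact Poisson intervals and open triangles at the level of 3 UMIs for classes with 0. T cells are the highest class of both shPrmt9 libraries, at 1613 and 2489 CPM, whereas MA9 cells lead in BM-Ctrl at 34.3 CPM and neutrophils in Spleen-Ctrl at 280.1 CPM.

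The order of the classes differed between libraries. In BM-Ctrl, MA9 cells (33.1 to 35.5 CPM) were followed by myeloid progenitors (17.4 to 27.8), conventional dendritic cells (7.23 to 37.0), monocytes (14.0 to 18.7) and macrophages (5.64 to 33.4), the last 4 of which overlap, and the intervals of the dendritic cells and macrophages also reach that of MA9 cells. In Spleen-shPrmt9, T cells were followed by monocytes at 575 CPM, B cells at 414, macrophages at 399 and MA9 cells at 242, and the B cell and macrophage intervals overlap. Neutrophils (117 CPM) and plasma cells (108 CPM) overlap as well, as do NK (59.8 CPM) and erythroid cells (55.5 CPM). No Cxcl10 UMI was found in 31 NK cells, 112 plasmacytoid dendritic cells or 91 basophils of BM-Ctrl, which allows up to 10.1, 2.65 and 3.40 CPM. In the spleen, T cells held 44.3% (Ctrl) and 68.1% (shPrmt9) of the Cxcl10 UMIs, and made up 22.2% and 35.9% of the cells.

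Cxcl9, the ligand most tied to interferon gamma, was found in few cells. Cells with at least 5 Cxcl9 UMIs numbered 0 in BM-Ctrl, 7 in BM-shPrmt9, 7 in Spleen-Ctrl and 10 in Spleen-shPrmt9, and in the latter 3 libraries they held 94 of 161, 68 of 82 and 179 of 251 UMIs. These 24 cells did not belong to 1 class. In Spleen-shPrmt9 the highest had 54 UMIs and passed no gate, and its highest marker score was that of conventional dendritic cells. A B cell with 35 UMIs, an MA9 cell with 27, another ungated cell with 16 and a T cell with 12 came next. In BM-shPrmt9 the highest, with 40 UMIs, passed several gates, and the next were a neutrophil with 15 and a monocyte with 12. In Spleen-Ctrl they were a T cell with 16 UMIs, an NK cell with 13 and a B cell with 10.

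Most cells with Cxcl9 in the spleen also had Cxcl10. Both ligands were seen in 1 of 9 Cxcl9 cells of BM-Ctrl, 16 of 52 of BM-shPrmt9, 12 of 17 of Spleen-Ctrl and 51 of 57 of Spleen-shPrmt9. In Spleen-Ctrl this was 70.6% of the Cxcl9 cells, where 10.3% of all cells had Cxcl10, and in Spleen-shPrmt9 it was 89.5% against 66.2%. The cells with Cxcl9 were deeper, at medians of 17484 and 18880 UMIs against 6942 and 10548 in all cells of these libraries. The part of depth or of free RNA in this overlap was not tested.

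By class, marrow monocytes had the clearest difference in Cxcl9, with 3 UMIs in BM-Ctrl and 28 UMIs in 8 cells of BM-shPrmt9. Their levels were 0.254 and 4.86 CPM, a ratio of 19.1 (5.91 to 98.3), and 12 of the 28 UMIs were in 1 cell. In splenic T cells Cxcl9 had 27 UMIs in Spleen-Ctrl, 16 of them in 1 cell, and 44 in Spleen-shPrmt9, or 1.57 and 1.53 CPM, a ratio of 0.970 (0.588 to 1.63). T cells of the marrow had 0 and 3 UMIs. Cxcl9 was therefore not detectably higher in the cells in which Cxcl10 was 21.3 times higher. Splenic B cells had 12 and 37 UMIs, with 35 of the 37 in 1 cell. MA9 cells of BM-shPrmt9 held 45 UMIs over 30 cells, at 0.476 CPM, against 5 UMIs in BM-Ctrl. However, the free RNA bound of these BM-shPrmt9 cells, again set by Ighm, was 0.427 CPM, or 89.8% of the counted level. MA9 cells of Spleen-shPrmt9 held 34 UMIs, 27 of them in 1 cell. The 43 macrophages of Spleen-shPrmt9 held 15 UMIs, or 24.0 CPM, and its 40 monocytes 13 UMIs, or 27.4 CPM.

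Cxcr3, the receptor, was mainly a T cell transcript in all 4 libraries, and in T cells it did not share the pattern of Cxcl10. T cells held 59.9% of all Cxcr3 UMIs in the Ctrl marrow, 67.0% in the shPrmt9 marrow, 63.7% in the Ctrl spleen and 66.5% in the shPrmt9 spleen. Their levels were 73.0 CPM (62.4 to 85.0), 71.3 CPM (59.1 to 85.2), 40.8 CPM (37.9 to 44.0) and 34.8 CPM (32.7 to 37.0). The ratio of shPrmt9 to Ctrl was 0.976 in the marrow (0.765 to 1.24) and 0.853 in the spleen (0.774 to 0.941). Neither is a 2-fold difference, where 5.37% of genes in marrow T cells and 9.98% in splenic T cells were at least 2-fold lower. The share of T cells with a Cxcr3 UMI was 32.5%, 31.1%, 16.3% and 13.4%, and 13.5%, 11.3%, 5.69% and 4.97% after thinning. The highest single T cell held 13 UMIs or fewer, and without the highest cells the ratios were 0.961 and 0.85. As a mean of per-cell CPM, which gives shallow cells the same weight as deep ones, the marrow levels were 74.5 and 118.5 CPM, a ratio of 1.59, so the direction in the marrow depends on how cells are weighted. The spread between animals is not known, and the small spleen difference cannot be told apart from it.

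Within splenic T cells the receptor differed between the lineages. CD8 T cells were at 49.6 CPM in the Ctrl spleen and 53.7 CPM in the shPrmt9 spleen, a ratio of 1.08 (0.967 to 1.21). CD4 T cells were at 26.7 and 17.8 CPM, a ratio of 0.669 (0.497 to 0.904). CD4 cells thus had 0.538 times the CD8 level in Spleen-Ctrl (0.419 to 0.682) and 0.332 times in Spleen-shPrmt9 (0.270 to 0.405). T cells in which neither lineage transcript was seen, which does not show that they lack it, went from 28.5 to 8.89 CPM, a ratio of 0.311 (0.220 to 0.438). In the marrow the CD4 values rested on 7 and 10 UMIs, and their interval against CD8 cells includes 1 in both libraries.

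The lower receptor level of the shPrmt9 spleen was thus seen in CD4 cells and in those with no lineage UMI and not in CD8 cells, by the counting intervals of each ratio. After thinning, the shares of CD4 cells with a Cxcr3 UMI, 4.12% (2.46% to 6.43%) in Spleen-Ctrl and 3.10% (1.98% to 4.62%) in Spleen-shPrmt9, had overlapping intervals. The difference between these ratios has no replicate check.

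**Figure D5:**
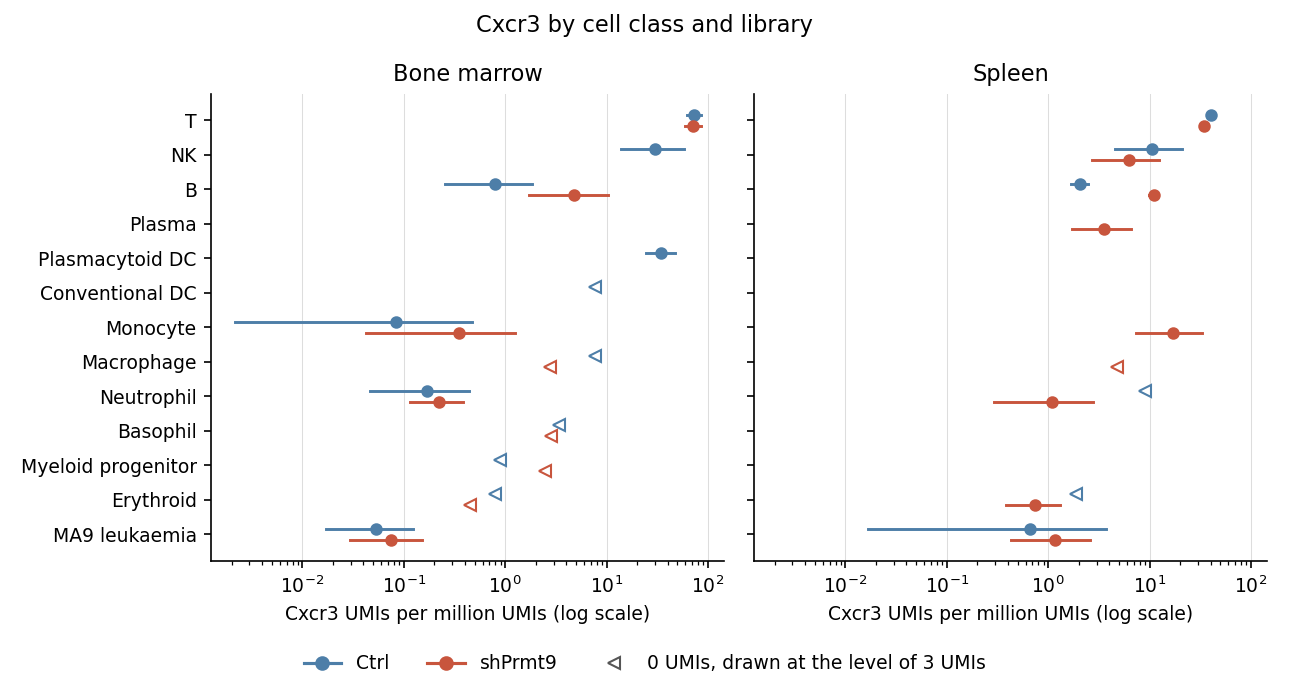
Cxcr3 level (CPM, log axis) by cell class in the 4 libraries, for classes with at least 20 cells, with exact Poisson intervals and open triangles at the level of 3 UMIs for classes with 0. T cells are the highest class in each library, at 73.0, 71.3, 40.8 and 34.8 CPM, and the Ctrl and shPrmt9 intervals of marrow T cells overlap.

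Other classes known to use the receptor were at lower levels. Plasmacytoid dendritic cells of BM-Ctrl had 39 UMIs in 112 cells, or 34.4 CPM (24.5 to 47.1), close to the 30.3 CPM (13.9 to 57.6) of its 31 NK cells, and both were below T cells. The 15 plasmacytoid dendritic cells of BM-shPrmt9 had 0 UMIs. NK cells of the spleen were at 10.7 CPM (Ctrl) and 6.30 CPM (shPrmt9), with 8 UMIs each and overlapping intervals. B cells of the spleen had 104 UMIs, or 2.05 CPM, and 327 UMIs, or 10.9 CPM, a ratio of 5.33 (4.27 to 6.72). The thinned shares of B cells with a UMI were 0.204% and 1.34%. T cell markers were at 0.796 per 10000 UMIs in the 63 B cells of Spleen-Ctrl with a Cxcr3 UMI and at 0.435 in the 5876 without, against 0.522 in 136 and 0.558 in 1300 B cells of Spleen-shPrmt9. B cells with a Cxcr3 UMI were deeper and more often had a T cell marker UMI, 41.3% against 25.5% in Spleen-Ctrl and 57.4% against 47.9% in Spleen-shPrmt9, and the part of T cell RNA in the B cell values was not tested. All 8 UMIs of Spleen-shPrmt9 monocytes were in 1 cell. Erythroid cells, basophils and myeloid progenitors of both marrow libraries had 0.

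Of the other CXC chemokine genes, none shared the T cell pattern of Cxcl10 at a comparable level. Of the 9 listed, 2 had at least 10 UMIs in marrow T cells, Cxcl10 and Cxcl2, a neutrophil attractant that went from 22 to 7 UMIs. In splenic T cells 5 did. Cxcl10 and Cxcl3 were at least 2-fold higher, and Cxcl3 rested on 1 and 18 UMIs, against 6.43% of all genes. Cxcl2, Cxcl9 and Cxcl16 were between the limits at 0.55, 0.970 and 0.740 times the Ctrl level. In marrow monocytes 5 of the listed genes had at least 10 UMIs, and 4 were at least 2-fold higher, 0 lower and 1 between, against 8.12% of all genes higher. Cxcl9, Cxcl10 and Cxcl16 were among the 4. Cxcl16, the ligand of CXCR6, went from 10.7 to 75.3 CPM, a ratio of 7.01 (5.74 to 8.61), while Cxcl2 was at 0.867 times. Dpp4, a protease that trims CXCL10, was at 1.08 times in marrow T cells and 0.712 times in splenic T cells.

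Of the 19 genes for inducers of the ligands and their signal chain, 18 were measured in T cells of each tissue. In the marrow 5 were at least 2-fold higher, 0 lower and 13 between, against 5.14% of all genes higher and 5.37% lower, with a median of 0.23 on the log2 scale against −0.00053 over all genes. Among the 5 higher genes were Irf7, the interferon regulatory factor that amplifies type I interferon (43.7 to 166 CPM), Nfkbia, the NF-kB inhibitor that NF-kB itself induces (191 to 844 CPM), Stat2 (17.1 to 41.0 CPM) and Ifng. Interferon gamma's own transcript rested on a single cell, since 198 of the 211 Ifng UMIs of BM-shPrmt9 T cells were in 1 cell and BM-Ctrl T cells held 30. Irf1, which carries the interferon gamma signal, was at 1.60 times. In the spleen 2 were at least 2-fold higher and 0 lower, against 6.43% and 9.98% of all genes, with a median of 0.18 against −0.070. They were Irf7 (77.4 to 379 CPM, 4.89 times) and Nfkbia (252 to 703 CPM, 2.79 times). Irf1 was at 0.933 times there. Of the 522 Ifng UMIs of Spleen-shPrmt9 T cells, 263 were in 1 cell, against 64 of 204 in Spleen-Ctrl. Ifnb1, a type I interferon gene, had 0, 1, 0 and 2 UMIs in all cells of the 4 libraries. At this depth its level could not be compared.

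Of the 15 lymphocyte genes that accompany Cxcr3, 1 was at least 2-fold higher, 2 lower and 12 between in marrow T cells, and 1, 1 and 13 in splenic T cells. Over all genes 5.14% were higher and 5.37% lower in the marrow and 6.43% and 9.98% in the spleen, so counts this small say nothing particular of the list. S1pr1, the receptor for exit from lymphoid tissue, was lower in both, at 0.416 and 0.434 times the Ctrl level. Cxcr4, the marrow retention receptor, was at 2.09 times in the marrow, and Ccr7, the lymph node homing receptor, at 2.08 times in the spleen. Foxp3 was at 0.394 times in the marrow, from 31 to 9 UMIs. Tbx21, which encodes T-bet, was at 1.31 and 1.55 times, between the 2-fold limits in both tissues.

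The genes whose levels were most like Cxcl10 over the 36 class sums were Ifit1 (Pearson's r = 0.73), Gbp2 (0.72), Ifit3b (0.71), Ifit3 (0.71) and Irgm2 (0.70), all interferon-induced genes. For Cxcr3 they were Gprin3 (0.89), Serp2 (0.86), Lck (0.84), Ctsw (0.84) and Rras2 (0.83), of which Lck encodes the kinase of the T cell receptor. For Cxcl9 they were Jag1 (0.76), Gm15056 (0.75), Procr (0.74), Il1a (0.71) and Nos2 (0.71), of which Il1a encodes a cytokine and Nos2 the inducible nitric oxide synthase. The ligands had r = 0.55 with each other, and Cxcr3 had r = 0.16 with Cxcl10 and 0.20 with Cxcl9. These correlations use log2(CPM + 1) among 12986 genes, and the 36 points share libraries and depth, so they are a description.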

How the data were processed

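Droplet-based 3′ scRNA-seq gave raw UMI counts for each gene in each barcode. The authors counted them with Cell Ranger (6.0.2 per the file headers, 6.1.1 per the submitters' processing notes) on the build mm10, and deposited the counts unnormalized. Groups came from the library titles. The 3 genes and the gene lists were chosen with earlier results of these data known.

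Barcodes with fewer than 200 genes or over 20% mitochondrial UMIs were left out. Before filtering, the libraries held 171461718, 188030429, 84009744 and 109555157 UMIs in 9746, 11315, 9115 and 8648 barcodes (BM-Ctrl, BM-shPrmt9, Spleen-Ctrl, Spleen-shPrmt9). A cell entered a class when it had a minimum number of the class's markers and of marker UMIs per 10000 of its UMIs, limits set on the files without the 3 genes. Cells that passed several gates were left out, which stood in for a doublet caller. Classes with fewer than 20 cells are given only where named. Positive shares were also taken after thinning each cell to 2000 UMIs, by 1 random draw for classes and another for T cell subsets, so the draws differ slightly. UMIs were summed per class and library. A sum of 0 was given a floor of 3 counts. Named genes were the 3 members, fixed lists (some of whose members are not reported here), and the 5 genes most correlated with each member among those with at least 200 UMIs. With 1 library per group, no test was run, and ratios and intervals were checked on simulated data.

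Analyses used Python 3.11.15, numpy 2.4.6, scipy 1.17.1, pandas 2.3.3, matplotlib 3.10.9, R 4.3.3 and edgeR 4.0.16, the last only for alternative scaling factors. Positions and promoters came from GENCODE and RefSeq on GRCm38, which is the assembly of mm10.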

Additional observations from a re-analysis of the deposited data

Results flagged for a closer look

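As counted, Cxcl10 moved in opposite directions in the tissues in MA9 cells, at 0.844 times the Ctrl level in marrow and 1.46 times in spleen, where Spleen-Ctrl had 37 such cells. The free RNA bound of splenic MA9 cells was 94.1 CPM in shPrmt9, or 38.9% of the counted level, against 1.65 CPM in Ctrl. Without the highest cells the spleen ratio was 2.14. The part of free RNA in this difference was not tested. Neutrophils also moved in opposite directions, at 5.17 times in marrow and 0.417 times in spleen, where Spleen-Ctrl had 41 cells. Neither difference between tissues was tested, since each value compares 1 library with 1 other and the Y-linked genes of the marrow and spleen libraries differed.

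Cells outside the 14 classes also carried the ligands. Cells that passed no gate made up 17.3% of Spleen-shPrmt9 and 2.26% of Spleen-Ctrl. In Spleen-shPrmt9 they held 12.2% of the Cxcl10 UMIs and 102 of 251 Cxcl9 UMIs (40.6%), 54 of them in 1 cell. Cells of BM-shPrmt9 that passed no gate were at 265 CPM of Cxcl10 against 4.84 CPM in BM-Ctrl, and those of Spleen-shPrmt9 at 1036 CPM against 292 CPM. Cells that passed several gates were at 66.9 CPM of Cxcl10 in BM-shPrmt9 against 15.2 CPM in BM-Ctrl, and at 689 CPM in Spleen-shPrmt9 against 60.1 CPM in Spleen-Ctrl. For Cxcl9, cells of BM-shPrmt9 that passed several gates were at 3.24 CPM, with 40 of the 55 UMIs in 1 cell, against 0 UMIs in the 536 such cells of BM-Ctrl.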

How the results depend on the processing

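Of 68 alternative values, 53 kept their direction and moved by less than their counting interval. The ratio of Cxcl10 in splenic monocytes was reversed, at 6.86, with the top cell of both libraries left out, and moved to 0.256 with a stricter gate and 0.991 as a mean of per-cell CPM. In T cells the Cxcl10 ratio moved to 457 in marrow without the highest cells, and in spleen to 22.5 with cells of several gates kept and 22.7 as a mean of per-cell CPM. In marrow monocytes it moved to 15.1 with a stricter gate, 14.4 with cells of several gates kept, 15.2 without the highest cells and 15.3 with free RNA subtracted. The Cxcr3 ratio in T cells moved to 1.59 in marrow as a mean of per-cell CPM, and to 0.759 in spleen among T cells with no UMI of a monocyte or macrophage marker, an alternative chosen after the data were seen. The gap in the share of T cells with a UMI between shPrmt9 and Ctrl moved, for Cxcl10, to 60.7 percentage points in marrow thinned to 4000 UMIs and 63.6 in spleen thinned to 1000, and for Cxcr3 in spleen to −2.28 thinned to 4000. The causes of these changes were not tested, apart from the weight of single cells. Another 4 alternatives gave no value, 3 with free RNA subtracted (Cxcl10 in marrow T cells, and both ligands in the splenic monocytes, where Spleen-Ctrl had under 20 cells) and Cxcl9 in splenic monocytes without the highest cell, which left 0 Ctrl UMIs. No paired analysis was possible because each group has 1 library and no result comes from a test. Cxcl9 was not above its free RNA bound in 23 of 36 class sums and Cxcr3 in 22, and the part of depth in this was not tested.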
